A study of Mus musculus with 24 samples.

Results

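The comparison set the RNA of NIH-3T3 cells, an established mouse embryonic fibroblast line, after 3 h of interferon-alpha (IFN-alpha) directly against that after 3 h of interferon-gamma (IFN-gamma). Its members were the 3 arrays labelled 3 h IFN-alpha and the 3 labelled 3 h IFN-gamma, so 6 of the 24 arrays of the series. Both groups received 100 U/ml of their interferon, and both also carried 4-thiouridine (4sU), a uridine analogue that cells build into new RNA, at 500 µM from 150 to 180 min. The 3 mock arrays of 3 h, with the same 4sU and no interferon, served as the reference level. The 8 arrays of both interferons at 1 h, at the same 100 U/ml but with 200 µM 4sU from 0 to 60 min, gave the same contrast at an earlier time. Total cellular RNA was hybridised, not the separated 4sU-labelled fraction, so every level includes RNA made before the treatment. All cells were of 1 line, and the labels do not say whether replicates came from separate cultures, so a p-value here rests on array-to-array spread that may be technical.

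Type I interferons such as IFN-alpha bind the receptor IFNAR, whose kinases JAK1 and TYK2 lead to a complex with STAT2 and IRF9 that binds interferon-stimulated response elements in the promoters of antiviral genes. IFN-gamma binds a separate receptor, IFNGR, whose kinases JAK1 and JAK2 act mainly through gamma-activated sites in promoters such as that of Irf1. Fibroblasts carry both receptors, and many genes are known to respond to both interferons.

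Levels are GCRMA signals on the log2 scale, and a difference is the IFN-alpha mean minus the IFN-gamma mean, so that 1 unit is a doubling. A probe set was kept where its signal was above log2 4 on at least 3 of the 24 arrays, which left 19305 probe sets and 9421 named genes. Just inside that limit, 728 probe sets had their third-highest signal within 0.25 above 4, with differences from -1.49 to 1.50. Just outside it, 960 lay within 0.25 below 4, with differences from -1.63 to 0.95. On the 6 arrays the median signal was 2.95 to 2.96, and 17401 to 17627 probe sets were above 4. The fibroblast markers matched the labelled line: all 17 measured were above 4, with a median level of 11.92, whereas 1 of 14 leukocyte markers (Cd14, 5.30) and 0 of 12 epithelial and endothelial markers were. Replicate 3 of IFN-alpha stood apart in the 3 control probe sets for 18S ribosomal RNA, which read 9.89 to 10.93 there and 3.96 to 6.17 on the other 8 arrays of 3 h. Without that array, 235 probe sets were called in place of 325, of which 234 were among the 325, and no difference of the 118 genes named by rule moved by more than 0.27. In bulk RNA, fewer responding cells and less RNA per cell cannot be told apart.

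At 3 h the interferons left different RNA profiles. IFN-alpha gave the higher level for many antiviral effectors, some RNA sensors and nuclear body genes, led by Rsad2, Mx1 and Cmpk2, and IFN-gamma for Cxcl9, Fst, Irf1, Socs3 and Cd274. In the limma fit, with Benjamini-Hochberg adjustment over all 19305 probe sets, 325 (1.68%) differed at an adjusted p under 0.05. Of these, 147 (0.761%) were higher with IFN-alpha and 178 (0.922%) with IFN-gamma. In genes, 78 (0.828% of 9421) were higher with IFN-alpha and 98 (1.04%) with IFN-gamma, and the median difference over all genes was -0.01. The 3 arrays of each group did not overlap for any of the 325, while over all probe sets the IFN-alpha arrays were wholly above in 8.82% and the IFN-gamma arrays in 10.7%.

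On the IFN-alpha side 28 of the 147 probe sets differed by at least 3 and 11 by at least 4, and on the IFN-gamma side 10 and 2 of the 178. Signal below log2 4 is background, and with such values set to 4 the counts were 18 and 8 with IFN-alpha higher and stayed at 10 and 2 with IFN-gamma higher. The median absolute difference of the called probe sets was 1.72 and 1.36 on the IFN-alpha and IFN-gamma sides, and 1.44 and 1.29 with that floor. Set beside mock, IFN-alpha had 300 called probe sets (1.55%), 295 higher (1.53%) and 5 lower (0.0259%). IFN-gamma had 385 (1.99%), 363 higher (1.88%) and 22 lower (0.114%). These counts share the treated arrays with the direct comparison.

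**Figure D1:**
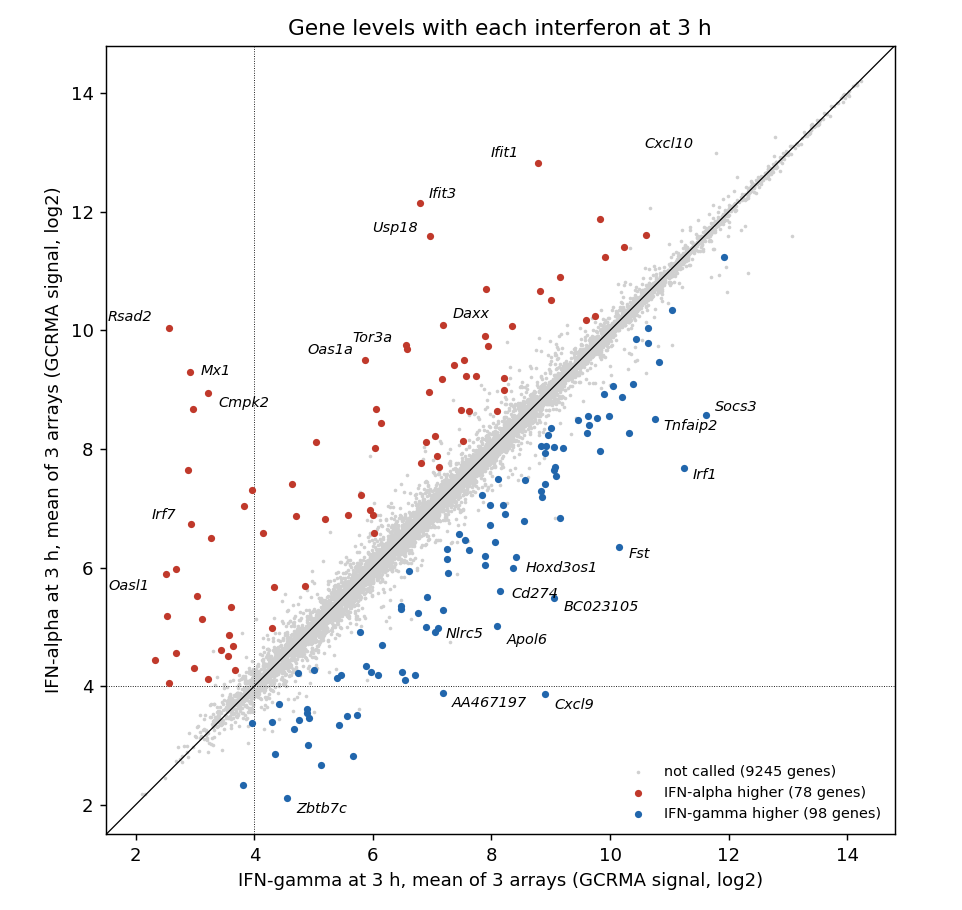
Mean GCRMA signal (log2) of the 3 IFN-gamma arrays (horizontal) and the 3 IFN-alpha arrays (vertical) at 3 h for 9421 genes; red points (78) were called higher with IFN-alpha, blue points (98) higher with IFN-gamma, and dotted lines mark log2 4. Most genes lie near the diagonal, Rsad2 reaches 10.04 with IFN-alpha against 2.56 with IFN-gamma, and Cxcl9 lies at 3.86 against 8.90.

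The counts depended on which arrays set the spread. At 3 h the replicates lay closer together than at 1 h (median SD of a probe set 0.118 and 0.120 against 0.363 and 0.403), and the fit of all 24 arrays uses 1 spread for both times. The replicate number as a block gave 603 calls (281 and 322; 3.12%), with 324 of the 325 among them, and a fit of the 9 arrays of 3 h alone gave 993 (471 and 522; 5.14%), with 316 of the 325. Without IFN-gamma replicate 1, the calls with IFN-gamma higher fell in number from 178 to 117.

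Several of the genes furthest on the IFN-alpha side were below log2 4 with IFN-gamma. Rsad2 encodes viperin, an antiviral enzyme that makes a chain-terminating nucleotide. Its signal was 9.95, 10.11 and 10.05 on the IFN-alpha arrays, 2.60, 2.54 and 2.53 on the IFN-gamma arrays and 2.55, 2.49 and 2.39 on the mock arrays. The IFN-alpha arrays alone were above log2 4, and the other 6 overlapped. The difference was 7.48 ± 0.72 (SE, 3 arrays per group; adjusted p = 5.33e-07), and against a floor of log2 4 the level was at least 65.6-fold higher with IFN-alpha. Mx1 and Mx2, dynamin-like GTPases that block virus replication, showed the same split. Mx1 read 9.27, 9.52 and 9.14 with IFN-alpha and 3.01, 2.95 and 2.76 with IFN-gamma, a difference of 6.40 ± 0.46 (at least 39.6-fold, adjusted p = 4.87e-09). Mx2 read 7.60, 7.74 and 7.62 with IFN-alpha and 3.17, 2.59 and 2.86 with IFN-gamma, a difference of 4.78 ± 0.30 (at least 12.6-fold, adjusted p = 6.81e-10). Cmpk2, a nucleotide kinase, read 9.08, 9.11 and 8.66 with IFN-alpha and 3.30, 3.49 and 2.83 with IFN-gamma, at least 30.9-fold apart. None of these genes passed the test with IFN-gamma against mock (adjusted p = 1 for each), while each did with IFN-alpha.

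The Ifit proteins bind viral RNA and stop its translation, and among their genes Ifit3 differed in another way, since IFN-gamma raised it too. Ifit3 read 12.15, 12.10 and 12.18 with IFN-alpha, 6.78, 6.77 and 6.81 with IFN-gamma and 4.36, 4.35 and 4.24 in mock. The 3 conditions formed 3 separate steps. The direct difference was 5.36 ± 0.46 (40.9-fold, adjusted p = 8.4e-08), beside 7.83 for IFN-alpha over mock and 2.47 for IFN-gamma over mock (adjusted p = 0.00234). Ifit1 read 12.86, 12.91 and 12.73 with IFN-alpha, against 8.75, 8.91 and 8.70 with IFN-gamma and 4.99, 5.19 and 5.21 in mock, and IFN-gamma did not pass against mock (3.65, adjusted p = 0.0683). Its difference of 4.05 ± 0.99 (16.5-fold) passed narrowly (adjusted p = 0.0372) and did not pass when any 1 of the 6 arrays was left out (adjusted p = 0.12 to 0.145). Across all alternatives its adjusted p ran from 2.39e-08 to 0.145 and its difference from 4.00 to 4.11. Ifit1bl1, a related gene, read 8.72, 8.67 and 8.63 with IFN-alpha and 3.04, 2.95 and 2.90 with IFN-gamma, at least 25.5-fold apart. As for Rsad2, its IFN-gamma and mock means were both below log2 4, and IFN-gamma did not pass against mock (0.31). Whether probe sets of such closely related genes also bind each other's RNA was not tested.

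Usp18, the protease that removes ISG15 from proteins and damps signalling from IFNAR, read 11.53, 11.63 and 11.63 with IFN-alpha, 6.91, 6.97 and 6.99 with IFN-gamma and 2.87, 3.44 and 3.06 in mock. Both interferons raised it, and the IFN-alpha level was 25-fold that with IFN-gamma (4.64 ± 0.36, adjusted p = 1.42e-08). Irf7, the transcription factor that drives further interferon production, read 6.64, 6.89 and 6.65 with IFN-alpha and 2.78, 2.95 and 3.08 with IFN-gamma, at least 6.62-fold apart (adjusted p = 2.15e-11). With IFN-gamma it did not pass the test against mock (0.49, adjusted p = 0.545). The Oas enzymes make the 2-5A signal that switches on RNase L. Oas1a read 9.63, 9.47 and 9.41 with IFN-alpha and 5.90, 5.90 and 5.78 with IFN-gamma, 12.5-fold apart (3.64 ± 0.11, adjusted p = 7e-15). Its relatives Oas1b and Oasl1 were at least 3.91-fold and 3.71-fold apart, with every IFN-gamma array below log2 4.

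The sensors of viral RNA followed. Ifih1 (MDA5), which detects long double-stranded RNA, read 6.99, 7.16 and 6.96 with IFN-alpha, 3.94, 4.17 and 3.34 with IFN-gamma and 2.38, 2.40 and 2.40 in mock, at least 7.87-fold apart between the interferons, with 2 of the 3 IFN-gamma arrays below log2 4. Dhx58 (LGP2) read 7.31, 7.19 and 7.42 with IFN-alpha and 4.38, 3.57 and 3.95 with IFN-gamma, at least 9.05-fold apart, also with 2 arrays below that floor. Tlr3, the endosomal receptor for double-stranded RNA, read 7.97, 8.05 and 8.33 with IFN-alpha and 5.02, 4.93 and 5.18 with IFN-gamma (3.08 ± 0.48, adjusted p = 0.000375). Tlr3 also rose with IFN-gamma against mock, at least 2.06-fold, since mock was below log2 4. For Ifih1 and Dhx58 the means of both IFN-gamma and mock were below that level. Daxx, a histone chaperone of PML nuclear bodies, read 10.10, 10.07 and 10.09 with IFN-alpha and 7.14, 7.25 and 7.16 with IFN-gamma, 7.48-fold apart. Of the other leading genes, Trim30d, Slfn8, Tor3a and Helz2 differed by 3.23, 3.19, 3.11 and 2.80.

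On the IFN-gamma side the largest difference was that of Cxcl9, a chemokine that draws T cells through the receptor CXCR3. It read 8.85, 9.02 and 8.83 with IFN-gamma, 4.07, 3.87 and 3.64 with IFN-alpha and 2.60, 2.40 and 2.40 in mock. The IFN-alpha arrays lay around the background level of log2 4, with 2 of 3 below it, and did not pass the test against mock (1.39, adjusted p = 0.448). Between the interferons the difference was -5.04 ± 0.48 (adjusted p = 5.33e-07), at least 29.5-fold. Irf1, a transcription factor with a gamma-activated site in its promoter, read 11.11, 11.26 and 11.37 with IFN-gamma, 7.72, 7.63 and 7.69 with IFN-alpha and 6.71, 6.69 and 6.71 in mock. At 3 h IFN-alpha raised it a little (0.98, adjusted p = 0.021), and IFN-gamma took it 11.8-fold higher than that (-3.56 ± 0.22, adjusted p = 5.01e-10). The small rise with IFN-alpha describes 3 h only. At 1 h the mean level of Irf1 was 9.31 with IFN-alpha, 11.24 with IFN-gamma and 5.96 in mock.

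Socs3 and Socs1, feedback inhibitors of cytokine signalling, were higher with IFN-gamma. Socs3 read 11.71, 11.52 and 11.62 with IFN-gamma, 8.84, 8.51 and 8.39 with IFN-alpha and 8.55, 8.58 and 8.31 in mock. At 3 h the IFN-alpha arrays overlapped those of mock, and IFN-gamma was 8.21-fold above IFN-alpha (-3.04 ± 0.17, adjusted p = 1.93e-10). At 1 h the mean level of Socs3 was 10.80 with IFN-alpha, 12.76 with IFN-gamma and 8.68 in mock. Socs1, which blocks JAK kinases, read 5.33, 5.53 and 6.11 with IFN-gamma and 2.56, 2.77 and 3.11 with IFN-alpha, at least 3.15-fold apart, and its call (adjusted p = 0.0347) was lost when any 1 of the 6 arrays was left out (0.0837 to 0.195). Over all alternatives the adjusted p of Socs1 ran from 1.81e-07 to 0.195. Cish, of the same family, had a difference of -1.48, but both group means were below log2 4, and with values floored at 4 the difference was -0.01 (adjusted p = 1). Its adjusted p ran from 7.03e-09 to 1 over the alternatives.

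Fst encodes follistatin, a secreted protein that binds activin. It read 10.18, 9.997 and 10.30 with IFN-gamma, 6.24, 6.47 and 6.31 with IFN-alpha and 6.10, 6.14 and 6.04 in mock. The IFN-alpha arrays lay above those of mock by a mean of 0.25, which did not pass the test (adjusted p = 1). IFN-gamma was 14.1-fold above IFN-alpha (-3.81 ± 0.30, adjusted p = 2.75e-08). Cd274 encodes PD-L1, a ligand that restrains T cells, and it read 7.99, 8.06 and 8.40 with IFN-gamma, 5.52, 5.32 and 5.95 with IFN-alpha and 2.54, 2.51 and 2.53 in mock. Both interferons raised it, and the IFN-gamma level was 5.85-fold that with IFN-alpha (adjusted p = 1.14e-05). Nlrc5, the transactivator of MHC class I genes, read 7.28, 7.07 and 6.78 with IFN-gamma and 4.83, 5.15 and 4.74 with IFN-alpha, against 2.37, 2.39 and 2.35 in mock, 4.41-fold apart between the interferons (adjusted p = 2.56e-10). Apol6 and BC023105 also rose with both interferons and further with IFN-gamma, with direct differences of -3.09 and -3.58. AA467197 had a direct difference of -3.30, but its IFN-alpha level was near the background of log2 4. With values floored at 4, AA467197 differed by -3.08 between the interferons and by 3.19 between IFN-gamma and mock.

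Another set of leading genes did not pass the test with IFN-alpha against mock at all. Tnfaip2, named for its induction by TNF, read 10.74, 10.77 and 10.75 with IFN-gamma, 8.40, 8.53 and 8.58 with IFN-alpha and 8.22, 8.50 and 8.31 in mock. Hoxd3os1, an RNA opposite the homeobox gene Hoxd3, read 8.41, 8.27 and 8.58 with IFN-gamma, 6.11, 6.03 and 6.38 with IFN-alpha and 6.13, 6.36 and 6.40 in mock. In both cases the IFN-alpha arrays overlapped those of mock, and the IFN-gamma arrays lay above both. Tgm2, a protein-crosslinking transglutaminase, Ggct, an enzyme of glutathione turnover, and Il18rap, a subunit of the interleukin-18 receptor, differed by -2.38, -2.31 and -2.52. Calhm5 differed by -2.44. Ccl11 (eotaxin), Tifa and Zbtb7c differed by -2.21, -2.46 and -2.45, but every IFN-alpha array was below log2 4, so the levels were at least 3.31-fold, 2.18-fold and 1.47-fold apart. Cblb, a ubiquitin ligase, differed by -2.25 on its brightest probe set (adjusted p = 0.000202) and by -1.37 on a second one, which did not pass (adjusted p = 0.126). Of the 30 called genes with IFN-alpha higher that had at least 2 probe sets, all probe sets were called in that direction in 20, and the signs were the same in all 30. With IFN-gamma higher these counts were 24 and 39 of 40.

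**Figure D2:**
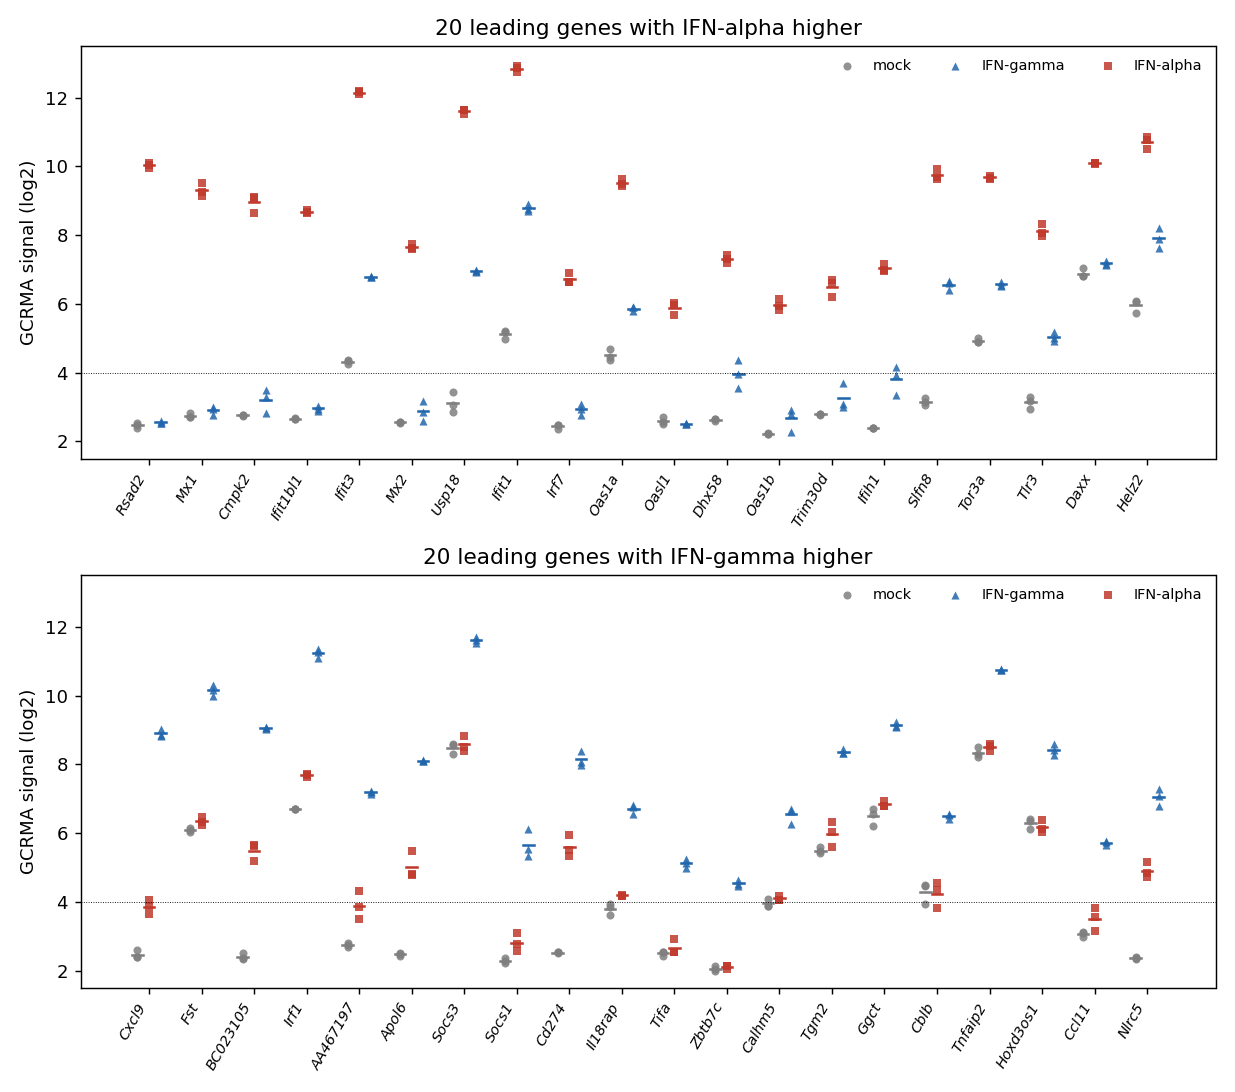
GCRMA signal (log2) on each of the 9 arrays of 3 h for the 20 leading genes in each direction; grey circles are mock, red squares IFN-alpha, blue triangles IFN-gamma, short bars the means of 3 arrays and the dotted line log2 4. In the upper panel the IFN-gamma points of Rsad2, Mx1 and Oasl1 lie with mock, and in the lower panel the IFN-alpha points of Socs3, Tnfaip2 and Hoxd3os1 do.

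The promoters of the genes that led each side are shown because the textbook binding sites differ between the pathways. RefSeq promoter windows (GRCm38.p6) were matched for 64 of the 78 genes with IFN-alpha higher and 70 of the 98 with IFN-gamma higher. The 250 bases before each start are written 5′ to 3′ along the gene, with a match to either motif, searched on both strands, in capitals. The first motif, GAAA, any 2 bases and GAAA, stands for the interferon-stimulated response element, and TTCNNNGAA for the gamma-activated site.
Rsad2 (chr12:26456453-26456702, minus strand): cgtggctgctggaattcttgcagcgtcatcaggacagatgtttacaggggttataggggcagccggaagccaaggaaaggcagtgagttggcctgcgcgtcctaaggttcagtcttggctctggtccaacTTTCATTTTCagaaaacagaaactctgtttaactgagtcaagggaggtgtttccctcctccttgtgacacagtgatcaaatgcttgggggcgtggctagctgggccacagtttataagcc
Ifit1bl1 (chr19:34601969-34602218, minus strand): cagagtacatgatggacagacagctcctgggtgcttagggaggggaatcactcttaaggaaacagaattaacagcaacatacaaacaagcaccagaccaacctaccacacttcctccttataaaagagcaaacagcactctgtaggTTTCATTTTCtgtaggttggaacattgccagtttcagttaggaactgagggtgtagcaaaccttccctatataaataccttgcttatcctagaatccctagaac
Ifit3 (chr19:34583279-34583528, plus strand): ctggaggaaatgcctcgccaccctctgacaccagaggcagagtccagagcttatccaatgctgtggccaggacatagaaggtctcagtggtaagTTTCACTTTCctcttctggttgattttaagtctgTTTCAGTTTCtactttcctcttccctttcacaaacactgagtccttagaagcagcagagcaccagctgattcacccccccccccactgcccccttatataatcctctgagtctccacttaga
Irf1 (chr11:53769764-53770013, plus strand): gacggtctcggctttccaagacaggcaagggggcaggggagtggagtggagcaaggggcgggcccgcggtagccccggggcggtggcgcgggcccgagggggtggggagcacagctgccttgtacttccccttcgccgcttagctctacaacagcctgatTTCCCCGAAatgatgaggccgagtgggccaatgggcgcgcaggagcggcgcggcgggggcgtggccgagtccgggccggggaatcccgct
Socs3 (chr11:117969367-117969616, minus strand): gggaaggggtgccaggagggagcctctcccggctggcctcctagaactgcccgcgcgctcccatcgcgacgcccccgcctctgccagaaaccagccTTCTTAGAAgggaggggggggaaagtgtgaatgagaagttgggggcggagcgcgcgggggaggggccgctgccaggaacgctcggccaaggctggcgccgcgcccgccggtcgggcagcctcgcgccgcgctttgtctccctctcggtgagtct
Cxcl9 (chr5:92328080-92328329, minus strand): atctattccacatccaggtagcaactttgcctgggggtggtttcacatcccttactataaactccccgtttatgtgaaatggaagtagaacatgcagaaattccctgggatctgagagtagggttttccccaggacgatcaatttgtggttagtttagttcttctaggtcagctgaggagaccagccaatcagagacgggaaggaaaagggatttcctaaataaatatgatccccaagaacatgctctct

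Rsad2 and the first start of Ifit1bl1 each held the first motif once, and Ifit3 held it at 2 places. Irf1 at its first start and Socs3 held TTCNNNGAA, beginning at positions -90 and -154 from the start. In Cxcl9, and in the windows of Cmpk2 and AA467197, which are not printed, neither motif was present in these letters. Over the matched genes, the first motif was present for 16 of 64 with IFN-alpha higher (25.0%) and 4 of 70 with IFN-gamma higher (5.71%), beside 3.10% of the 7717 matched genes with a kept probe set and 3.46% of the 27025 genes of the table. TTCNNNGAA was present for 6 (9.38%) and 8 (11.4%), beside 6.78% and 8.13%. The first motif was therefore more frequent on the IFN-alpha side and the second about as frequent on both; these shares describe the windows and were not tested.

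The gene lists place these differences in pathways, ordered here from signalling to effectors. Among 20 kept genes for receptors and JAK-STAT signalling, 0 were higher with IFN-alpha and 5 with IFN-gamma (Cish, Ptpn1, Socs1, Socs3 and Stat3), with a median difference of -0.04. The backgrounds for such counts are the 0.828% and 1.04% of all genes above. Stat3, a transcription factor of cytokine signalling, read 9.59, 9.60 and 9.69 with IFN-gamma and 8.39, 8.57 and 8.74 with IFN-alpha (-1.06 ± 0.21, adjusted p = 0.005). Ptpn1, a tyrosine phosphatase that acts on JAK kinases, differed by -0.65 ± 0.16 (adjusted p = 0.0479), and its call was lost without any 1 of the 6 arrays (0.0773 to 0.352; 2.51e-05 to 0.352 over all alternatives). Stat2, part of the type I complex, rose with both interferons, by 4.40 with IFN-alpha and 3.88 with IFN-gamma. Its direct difference was 0.52 (95% interval -0.45 to 1.49; adjusted p = 1, 0.049 in a blocked fit of the 9 arrays of 3 h, and 0.049 to 1 over all alternatives).

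The 8 kept interferon regulatory factors split, with Irf7 higher with IFN-alpha, Irf1 higher with IFN-gamma and 6 not called. Irf9, the DNA-binding partner of STAT2, rose by 3.84 with IFN-alpha and 3.40 with IFN-gamma, and its direct difference was 0.43 (-0.17 to 1.03). Irf2 differed by 0.41 (-0.20 to 1.02). These intervals still allow differences of up to 1.03 and 1.02, so equal levels are not shown.

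Of 33 kept antiviral effectors, 20 were higher with IFN-alpha, 1 with IFN-gamma (Samhd1, named after its value was seen) and 12 were not called, with a median difference of 1.72 and 32 of 33 above 0, beside 46.4% of all genes. Beside mock, 31 of them were called higher with IFN-alpha (median 3.81; 1.79% of all genes) and 22 with IFN-gamma (median 1.62; 2.21% of all genes). With the block 25 were higher with IFN-alpha, and with the 9 arrays of 3 h 30 were. Oasl2, a further Oas relative, read 10.89, 10.97 and 10.82 with IFN-alpha and 9.26, 9.23 and 8.96 with IFN-gamma, against 2.64, 3.15 and 3.15 in mock. Both interferons raised it strongly, and the direct call (1.75 ± 0.43, adjusted p = 0.0372) was lost without any 1 of the 6 arrays (0.108 to 0.182; 7.23e-07 to 0.182 over all alternatives). Of 9 sensors, 4 were higher with IFN-alpha (Ddx58, Dhx58, Ifih1 and Tlr3) and 1 with IFN-gamma. Ddx58 (RIG-I), which detects viral RNA ends, read 9.22, 9.24 and 9.07 with IFN-alpha and 7.28, 7.37 and 6.85 with IFN-gamma (4.03-fold). The exception was Nod1, a sensor of bacterial cell wall, at 8.76, 8.89 and 8.84 with IFN-gamma and 7.41, 7.25 and 7.23 with IFN-alpha (-1.53 ± 0.24, adjusted p = 0.000526). With IFN-alpha, Nod1 did not pass the test against mock (0.74, adjusted p = 0.35).

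The ISG15 pathway attaches the ubiquitin-like protein ISG15 to other proteins. All 5 of its kept genes rose with each interferon beside mock, and 4 were higher with IFN-alpha than with IFN-gamma, with a median difference of 1.17. With values floored at log2 4, the rise of Ube2l6 with IFN-gamma was 0.47 and did not pass (adjusted p = 0.305). Besides Usp18, the ligase Herc6 differed by 2.30 ± 0.22 (adjusted p = 5.44e-07). The ligase Trim25 (1.17, adjusted p = 0.0282) lost its call without any 1 of the 6 arrays (0.0693 to 0.163; 3.01e-07 to 0.163 over all alternatives). The activating enzyme Uba7 (0.88, adjusted p = 0.018) lost it on leaving out replicate 1 or 2 of IFN-alpha, or 1 or 3 of IFN-gamma (0.0517 to 0.163; 1.1e-05 to 0.163 over all alternatives). The conjugating enzyme Ube2l6 was not called (0.62, adjusted p = 0.178).

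Of 13 genes of cell death and nuclear bodies, 4 were higher with IFN-alpha (Daxx, Phf11d, Pml and Sp100) and 1 with IFN-gamma. Sp100 and Pml are main components of PML nuclear bodies. Sp100 read 6.92, 6.99 and 6.71 with IFN-alpha and 4.52, 4.85 and 4.72 with IFN-gamma (4.52-fold, adjusted p = 2.04e-10). Pml read 8.02, 8.11 and 8.24 with IFN-alpha and 6.99, 6.98 and 6.72 with IFN-gamma, and its call (adjusted p = 0.0343) was lost without any 1 of the 6 arrays (0.0915 to 0.186; 2.31e-07 to 0.186 over all alternatives). Both other probe sets of Pml were called in the same direction. Fas, the death receptor, went the other way, at 9.01, 8.96 and 8.76 with IFN-gamma and 8.10, 7.87 and 7.84 with IFN-alpha (-0.97, adjusted p = 0.028; 0.0548 to 0.144 without 1 array and 1.45e-06 to 0.144 over all alternatives). Casp4, an inflammatory caspase, rose with both and differed by -0.29 (-0.72 to 0.14). Trim21, an antibody receptor of the cytosol, also rose with both, and differed by 0.42 (-0.47 to 1.31; adjusted p = 1, 0.0273 in the blocked fit of 9 arrays, and 0.0273 to 1 over all alternatives).

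The large interferon-inducible GTPases of the p47 and p65 families, which attack the vacuoles of intracellular parasites, rose with both interferons, with Gbp8 as an exception. Beside mock, 9 of the 10 kept were called higher with IFN-alpha (median 6.03) and 10 with IFN-gamma (median 6.87). In the direct comparison all 10 differences, on the brightest probe sets, lay below 0, from -1.49 to -0.36, with a median of -1.29. Of these 10, only Gbp6 and Gbp8 were called. Gbp2b, a related gene outside the list and named after its value was seen, was also called higher with IFN-gamma (-1.35). With the replicate block 8 of the 10 were called higher with IFN-gamma, and with the 9 arrays of 3 h all 10 were (5.92% of all genes called either way in that fit). Igtp read 11.94, 12.06 and 11.92 with IFN-gamma and 10.66, 10.68 and 10.61 with IFN-alpha, from 3.03, 3.005 and 2.67 in mock. The groups did not overlap, at -1.32 (adjusted p = 0.0712; 0.018 with the block and 1.1e-06 to 0.28 over all alternatives). Iigp1 read 12.25, 12.40 and 12.31 with IFN-gamma and 10.94, 10.93 and 11.01 with IFN-alpha, at -1.36 (adjusted p = 0.563; 0.0114 with the block and 0.000118 to 1 over all). Gbp2 read 13.16, 13.10 and 12.96 with IFN-gamma and 11.71, 11.67 and 11.41 with IFN-alpha, at -1.48 (adjusted p = 0.154; 0.0161 with the block and 6.18e-06 to 0.55 over all), and a second probe set of Gbp2 was called at -1.72 (adjusted p = 0.038).

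Ifi47, Irgm1 and Irgm2 differed by -1.30, -0.88 and -0.80, with adjusted p of 0.187, 0.174 and 0.516, and 0.0296, 0.0367 and 0.014 with the block. Over all alternatives their adjusted p ran from 4.75e-06 to 0.605, 1.15e-05 to 0.62 and 0.000311 to 1. Gbp6 read 10.37, 10.46 and 10.33 with IFN-gamma and 9.11, 9.16 and 9.02 with IFN-alpha (adjusted p = 0.0122), a call lost on leaving out replicate 1 or 3 of IFN-alpha, or 1 or 2 of IFN-gamma (0.0505 to 0.0662; 1.71e-07 to 0.0662 over all alternatives). A second probe set of Gbp6 was called at -2.15 (adjusted p = 8.75e-05). Gbp8 did not pass with IFN-alpha against mock (0.10, adjusted p = 1): it read 4.30, 4.65 and 4.10 with IFN-gamma, 2.93, 2.83 and 2.81 with IFN-alpha and 2.80, 2.75 and 2.73 in mock. With values floored at log2 4 its adjusted p was 0.125, the highest of its alternatives (3.96e-11 to 0.125). Gbp3 differed least, by -0.36 (-1.36 to 0.63; adjusted p = 1, 0.0317 in the blocked fit of 9 arrays, and 0.0317 to 1 over all alternatives).

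Of 9 genes listed as immediate IFN-gamma targets, 7 were higher with IFN-gamma (Cd274, Cish, Cxcl9, Irf1, Nlrc5, Socs1 and Socs3), with a median of -2.55; earlier results of these data were known when the list was written. Cxcl10 was the member above 0. A chemokine of the same receptor as Cxcl9, it read 12.98, 13.004 and 12.998 with IFN-alpha, 11.83, 11.78 and 11.78 with IFN-gamma and 4.13, 4.36 and 4.36 in mock. Both interferons raised it, by 8.71 and 7.51, and the IFN-alpha arrays lay above the IFN-gamma arrays by 1.20 ± 0.40 (adjusted p = 0.304; 0.0139 with the block and 1.82e-05 to 0.715 over all alternatives). Cxcl9 and Cxcl10 thus had differences of opposite sign.

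Of 12 kept genes of MHC class I presentation, 4 rose with IFN-alpha and 6 with IFN-gamma beside mock, and Nlrc5 and Psmb9 were higher with IFN-gamma in the direct comparison, with a median of -0.34. With the block 3 were higher with IFN-gamma, and with the 9 arrays of 3 h 6 were. Psmb9, an immunoproteasome subunit, read 8.77, 8.82 and 9.12 with IFN-gamma and 7.38, 7.19 and 7.68 with IFN-alpha (-1.49, adjusted p = 0.0256), a call lost without any 1 of the arrays other than IFN-alpha replicate 3 (0.0695 to 0.15; 1.41e-06 to 0.15 over all alternatives). Tap1, a subunit of the peptide transporter, rose by 5.43 with IFN-gamma and 4.60 with IFN-alpha, and its arrays did not overlap between the interferons. The direct difference of -0.84 (-1.87 to 0.20) did not pass with 24 arrays (adjusted p = 1, 0.114 with the block) and passed with the 9 arrays of 3 h (0.0253; 0.00205 to 1 over all alternatives). Erap1, a peptide-trimming enzyme, differed by -0.76 (adjusted p = 1; 0.00378 with the block and 0.000961 to 1 over all alternatives). The only kept gene of MHC class II presentation, Ifi30, differed by -0.19 (-0.63 to 0.25).

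Among 16 chemokines and cytokines, Il15 was higher with IFN-alpha and Cxcl1 and Cxcl9 with IFN-gamma. With the block there were 4 in each direction. Il15, a growth factor of natural killer cells, read 7.37, 7.27 and 7.06 with IFN-alpha and 6.05, 5.57 and 5.75 with IFN-gamma (1.44 ± 0.25, adjusted p = 0.00158). Cxcl1, a neutrophil chemokine, read 10.10, 10.12 and 10.36 with IFN-gamma, 8.82, 8.92 and 8.90 with IFN-alpha and 8.92, 9.10 and 9.21 in mock. IFN-alpha did not pass against mock, and the interferons differed by -1.32 ± 0.16 (adjusted p = 2.3e-05). Il6 and Lif were above 0, at 0.78 and 0.64 (adjusted p = 0.52 and 0.0632; 0.0179 and 0.0243 with the block; 0.00164 to 1 and 0.000112 to 0.384 over all alternatives). For Lif the difference came with a fall with IFN-gamma beside mock (-0.71, adjusted p = 0.024), while IFN-alpha was at -0.07. Cx3cl1 differed by -1.08 (adjusted p = 1; 0.0113 with the block and 9.77e-05 to 1 over all alternatives). Ccl2, a monocyte chemokine, rose with both interferons, by 2.27 and 2.28, and its direct difference was 0.00 with a wide interval (-1.16 to 1.15).

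Of 17 NF-kB targets, 0 were higher with IFN-alpha and 2 with IFN-gamma (Cxcl1 and Tnfaip2), against 1 and 5 with the block. Bcl3, a nuclear partner of NF-kB, read 7.64, 7.67 and 7.48 with IFN-gamma and 6.46, 6.48 and 6.38 with IFN-alpha (-1.16, adjusted p = 0.48; 0.000201 with the block and 7.6e-05 to 1 over all alternatives). Sod2, the mitochondrial superoxide dismutase, differed by -0.90 on its brightest probe set (adjusted p = 0.178; 0.0011 with the block and 8.58e-06 to 0.613 over all), and 2 of its 3 other probe sets were called, at -0.97 and -1.38. Nfkbiz differed by -0.76 (adjusted p = 0.0681; 0.00854 with the block and 2.5e-06 to 0.3 over all). Vcam1, an adhesion molecule, differed by 0.45 (-0.05 to 0.95; adjusted p = 1, 0.0313 in the blocked fit of 9 arrays, and 0.016 to 1 over all alternatives).

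Of 16 kept homeobox and growth factor genes, 5 were higher with IFN-gamma (Fst, Hoxd3, Hoxd3os1, Hoxd8 and Hoxd9), 0 with IFN-alpha and 11 were not called, against 5 with IFN-gamma and 2 with IFN-alpha with the block. Beside mock, 0 of the 16 rose with IFN-alpha and 4 with IFN-gamma. Hoxd8, a homeobox transcription factor, read 9.58, 9.71 and 9.65 with IFN-gamma, 8.40, 8.31 and 8.49 with IFN-alpha and 8.44, 8.43 and 8.52 in mock (-1.24 ± 0.16, adjusted p = 2.67e-05). Hoxd9 read 8.005, 7.87 and 8.05 with IFN-gamma and 6.58, 6.77 and 6.79 with IFN-alpha, and its call (adjusted p = 0.0087) was lost without IFN-alpha replicate 1 or IFN-gamma replicate 3 (0.0505 to 0.0576; 2.37e-08 to 0.0576 over all alternatives). Hoxd3 read 5.73, 5.76 and 5.21 with IFN-gamma, with all 3 IFN-alpha arrays below log2 4. Mycn, a transcription factor gene of the same list, was above 0 (0.69, adjusted p = 0.696; 0.00115 with the block and 0.000286 to 1 over all alternatives).

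Control lists showed what did not pass: 0 of 28 serum immediate early genes, 0 of 24 cell cycle genes, 0 of 11 housekeeping genes and 0 of 17 fibroblast markers were called by limma on their brightest probe set, although a second probe set of Jun was (-0.74, adjusted p = 0.0267). At an unadjusted p under 0.05 these counts were 5, 0, 0 and 0, beside 834 of all 19305 probe sets. With the 9 arrays of 3 h they were 4, 1, 0 and 0, beside 5.92% of all genes called either way. The median differences of the 4 lists were 0.12, 0.07, 0.01 and 0.06. Actb, a cytoskeletal actin, differed by 0.02 (-0.27 to 0.31), and the cyclin Ccnd1 by 0.22 (-0.70 to 1.14). With the block, 2 serum immediate early genes were called with IFN-alpha higher and 3 with IFN-gamma higher. Of these transcription factors and phosphatases, Dusp1 and Egr3 were at 0.92 and 0.69 (block 0.0113 and 0.000654), and Atf3, Jun and Egr2 at -0.91, -0.94 and -1.12 (block 0.016, 0.0113 and 0.000109). Their adjusted p over all alternatives ran from 7.25e-05 to 1, 1.92e-05 to 0.64, 0.00144 to 1, 2.43e-05 to 0.751 and 2.49e-06 to 0.43.

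**Figure D3:**
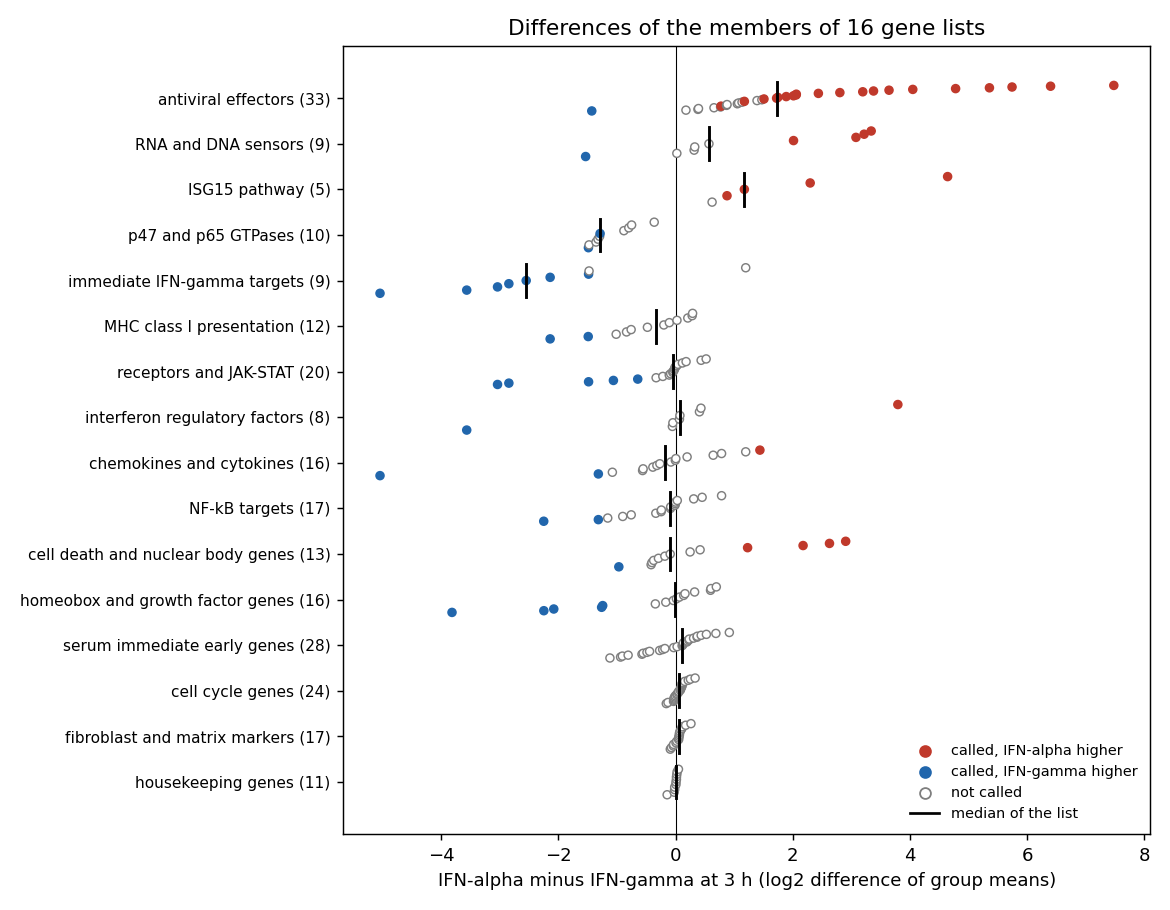
Difference between the interferons at 3 h (log2, IFN-alpha minus IFN-gamma) for each kept gene of 16 lists, with the number of genes in brackets; filled points were called, open points were not, and black bars are list medians. Antiviral effectors spread to the right with a median of 1.72, all 10 GTPases lie to the left of 0, and housekeeping genes lie near 0.

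At 1 h, on other arrays, fewer probe sets differed between the interferons: 20 with IFN-alpha higher (0.104%) and 50 with IFN-gamma higher (0.259%), against 166 in all with the block. Of the 78 genes with IFN-alpha higher at 3 h, 10 were already called in that direction at 1 h (12.8%, and 71.4% of the 14 called at 1 h). Of the 98 with IFN-gamma higher, 18 were (18.4%, and 75% of the 24), and 0 in either set were called in the opposite direction. The change of the difference between the times passed for 106 probe sets (0.549%), 64 upward (0.332%) and 42 downward (0.218%), and for 219 with the block. 4sU dose and labelling window changed with the time, and their part in these changes cannot be told apart from it.

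Some differences were called at 1 h already. Among them were Ifit1 (5.70 ± 0.86 at 1 h) and Ifit3 (3.74 ± 0.40) on the IFN-alpha side and Hoxd3os1 (-2.56 ± 0.18) on the IFN-gamma side. None of these 3 passed the test of a change to 3 h (adjusted p = 1, 0.959 and 1). Helz2 (1.94 ± 0.272) and Ddx58 (1.53 ± 0.275) were called at 1 h as well, and their change did not pass either. Tor3a was called at 1 h (1.61), and its change passed. Mx1 and Mx2 were called at 1 h on the values as deposited, but not with values floored at log2 4. Usp18 and Cxcl9 were also called at 1 h, but the lower group was then below log2 4, so their levels were at least 3.93-fold and 5.28-fold apart. Their change to 3 h did not pass on the values as deposited (adjusted p = 1 and 1) and passed with values floored at log2 4 (2.67 and -2.48, adjusted p = 0.00246 and 0.0165). For Oas1a, Irf7, Nlrc5 and Cd274 both interferon groups were below log2 4 at 1 h, so no difference at that time was measurable. With the floor their change from 1 h to 3 h was 3.64, 2.73, -2.14 and -2.67, and each passed both with the floor and without it.

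Irf1, Socs3 and Fst did both: each was called at 1 h with IFN-gamma higher (-1.93, -1.97 and -1.94), and each differed further at 3 h by a change that passed (-1.63, -1.07 and -1.87). Irf1 was at 11.24 with IFN-gamma at both times, and with IFN-alpha at 9.31 at 1 h and 7.68 at 3 h. Socs3 was lower at 3 h with both, going from 10.80 to 8.58 with IFN-alpha and from 12.76 to 11.62 with IFN-gamma. Fst went from 7.76 to 6.34 with IFN-alpha and from 9.70 to 10.16 with IFN-gamma. Map3k8, a kinase upstream of ERK, was higher with IFN-gamma at 1 h (-0.99 ± 0.18, adjusted p = 0.00762) and near equal at 3 h (0.03, -0.40 to 0.46), although the change did not pass (adjusted p = 0.156).

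**Figure D4:**
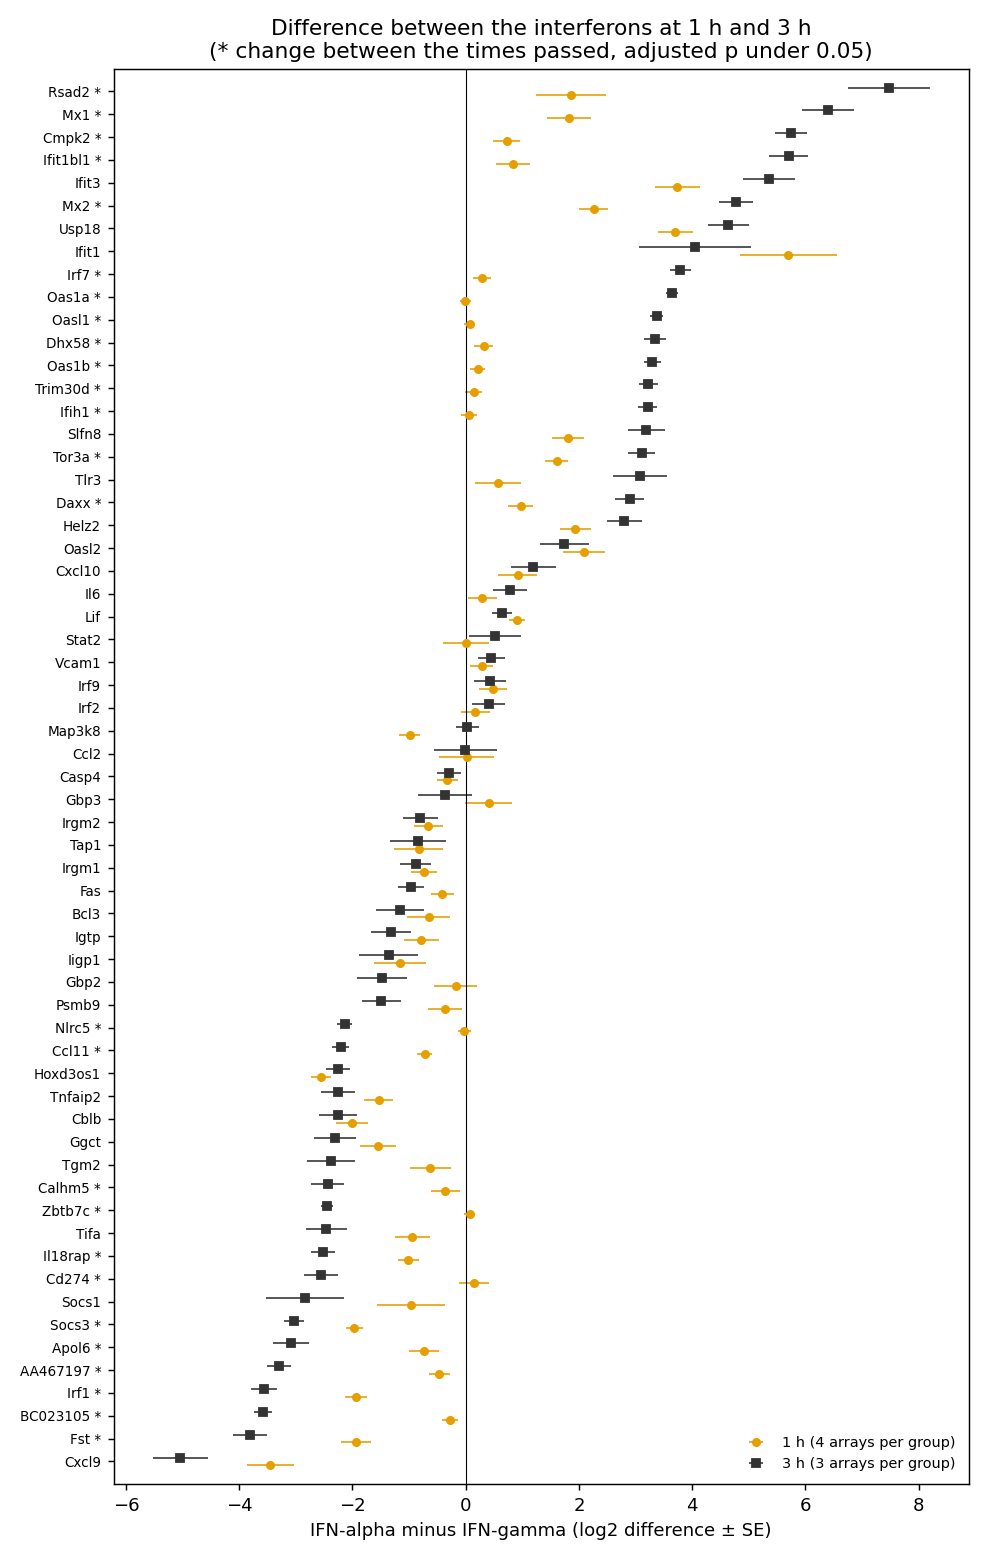
Difference between the interferons (log2, IFN-alpha minus IFN-gamma) with its SE from the fit of 24 arrays, at 1 h (orange circles, 4 arrays per group) and 3 h (dark squares, 3 arrays per group), for 61 genes in the order of their 3 h difference; a star marks a change between the times with an adjusted p under 0.05. Ifit1, Ifit3 and Hoxd3os1 lie far from 0 at both times, while Oas1a and Nlrc5, below log2 4 at 1 h, do so at 3 h.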

How the data were processed

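Total cellular RNA was measured on 24 single-colour Affymetrix arrays in 7 groups. The deposited log2 values were made by the authors with GCRMA, per the submitters' processing notes; its version and the number of runs are not given in the sources used here, so a shift between runs would go unseen. Of 45101 probe sets, 64 controls were left out. Of the others, 34945 had 1 gene symbol in the platform annotation, 932 had several and 9160 had none; genes were named from single symbols, by the probe set of highest mean over the 24 arrays. Isg15 was not analysed here. Every value column belonged to a sample.

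Probe sets above log2 4 on at least 3 arrays (19305) entered a limma fit (version 3.58.1 in R 4.3.3, lmFit then eBayes) with a mean per group over all 24 arrays, which left 17 residual degrees of freedom. Two-sided p-values were adjusted by Benjamini-Hochberg, and a call needed an adjusted p under 0.05. Folds marked "at least" set arrays of the lower group below log2 4 to 4. The procedure was tested on simulated data. Alternatives changed the arrays in the fit, the block, array weights, normalization, filter, floor, intensity trend, size limit and probe set rule, and left out each array in turn.

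Replicate numbers were taken to pair the 3 h arrays, since deviations of same-numbered arrays from their group means correlated at 0.128 to 0.646 in all 9 pairs, against -0.557 to 0.382 in the 18 other pairs. The check set the replicate 3 arrays apart, which correlated with each other at 0.587 to 0.646. It did not separate replicates 1 and 2, which also correlated across numbers, at 0.292 to 0.382. Their pairing therefore rests on the numbers in the labels. The same holds for the block at 1 h, where no such check was made. Blocked values stand beside results whose call they change or whose count they move by over 1.5 times.

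Members, the 19 lists and the test were chosen with earlier results of these data known. Named were the 20 largest called differences per direction without overlap between arrays, as many as 6 genes per list by absolute difference, and a set of 38 genes, of which those measured are given. Others are said to be chosen after their values were seen.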

Additional observations from a re-analysis of the deposited data

Results flagged for a closer look

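For 30 of the genes named by rule, the difference between the interferons changed between 1 h and 3 h in the test of that change (limma, adjusted p under 0.05). On the side of IFN-alpha the change, in log2 units, was 5.61 for Rsad2, 5.02 for Cmpk2, 4.87 for Ifit1bl1, 4.57 for Mx1, 3.65 for Oas1a, 3.50 for Irf7 and 3.31 for Oasl1. It was 3.16 for Ifih1, 3.09 for Trim30d, 3.08 for Oas1b, 3.02 for Dhx58, 2.52 for Mx2, 2.31 for Herc6, 2.26 for Sp100, 1.93 for Daxx and 1.50 for Tor3a. On the side of IFN-gamma it was -3.30 for BC023105, -2.84 for AA467197, -2.69 for Cd274, -2.52 for Zbtb7c, -2.35 for Apol6, -2.12 for Nlrc5 and -2.08 for Calhm5. It was -1.87 for Fst, -1.63 for Irf1, -1.56 for Hoxd3, -1.51 for Il18rap, -1.49 for Ccl11, -1.45 for Gbp8 and -1.07 for Socs3. For 20 of the 30 both groups were below log2 4 at 1 h, so these sizes depend on background signal. With values floored at 4 the change was 4.92 for Rsad2, 2.73 for Irf7, 1.89 for Oasl1, 1.97 for Oas1b and -0.55 for Zbtb7c, and Gbp8 no longer passed (-0.35, adjusted p = 0.922), while the other 29 did. 4sU dose and labelling window changed along with the time in every case.

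At 1 h, single IFN-alpha arrays lay far from the other 3 for 4 of these genes. Replicate 4 read 3.51 for Irf7 (2.50 to 2.57 on the others), 4.51 for Cd274 (3.14 to 3.37) and 2.97 for Apol6 (2.45 to 2.53). Replicate 2 read 2.82 for Ifih1 (2.35 to 2.39). The cut for such a gap is set so that about 1 in 20 groups of normally distributed values pass it by chance. Both interferon groups of 1 h were searched for each of the genes above, so some such gaps would arise by chance. All but the Cd274 value are below log2 4.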

How the results depend on the processing

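The 325 probe sets called at 3 h kept their direction under every alternative run, although filtering at log2 6 tested only 241 of them. For most alternatives this was fixed in advance. The arrays of the interferons did not overlap for any of the 325, so leaving out an array could not reverse a direction. Fits of fewer groups, other filters and the intensity trend used the same group means. More were called where the spread came from fewer or weighted arrays: 993 (471 with IFN-alpha higher, 522 with IFN-gamma higher) with the 9 arrays of 3 h, 869 (395, 474) with the 6 arrays compared, and 1214 (579, 635) with array weights. The replicate block, which takes the replicate numbers as pairs, gave 603 (281, 322) with 24 arrays and 1466 (686, 780) with 9. Beside mock, the 9 arrays gave 609 calls for IFN-alpha against 300 and 1127 for IFN-gamma against 385, and the block gave 657 for IFN-gamma. The block also gave 166 calls for the 1 h difference against 70, and 219 for the change between the times against 106, which was 161 with values floored at log2 4. Leaving out 1 of the 6 arrays in turn gave 234 to 242 calls, 111 to 119 with IFN-alpha higher and 117 to 128 with IFN-gamma higher. Quantile normalization, centring, an intensity trend, no filter, a filter at log2 6, the floor and a required difference of at least 1 left 241 to 372. No filter ended the calls of Ifit1, Oasl2, Pml, Psmb9, Socs1 and Trim25, centring that of Trim25, and the floor those of Cish and Gbp8. The cause was not tested, except that a required difference or a higher filter leaves fewer probe sets that can be called by construction. Signal below log2 4 limits the folds of 48 called probe sets on the IFN-alpha side and 29 on the IFN-gamma side, where they are lower bounds.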

Other observations

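The genes of these paragraphs lie outside the lists and, apart from Il15 and Tor3a, were chosen after their values were seen. Membrane proteins that activate torsin ATPases were higher with IFN-alpha, as was the torsin Tor3a above: Tor1aip1 differed by 1.78 (adjusted p = 6.31e-05, limma) and Tor1aip2 by 1.32 (9.66e-07). Pnpt1, a mitochondrial RNA exonuclease, differed by 1.48 (7.12e-05) and Ddx60, an RNA helicase, by 2.02 (4.4e-07). Apod, a lipid-binding apolipoprotein, was at 5.18 with IFN-alpha and at 2.52 and 2.54 with IFN-gamma and mock, both below log2 4.

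On the IFN-gamma side, Sting1, the adaptor of cytosolic DNA sensing, was at 7.10 against 4.98 with IFN-alpha and 4.61 in mock (difference -2.11, adjusted p = 7.13e-05). Il15ra, the receptor chain that presents interleukin-15, was higher with IFN-gamma (-1.55, adjusted p = 1.18e-05), while Il15 itself was higher with IFN-alpha (1.44, adjusted p = 0.00158). Hk2, the hexokinase at the entry of glycolysis, differed by -2.05 (adjusted p = 6.66e-05), and Txnip, which restrains glucose uptake, by -1.87 (0.0115). Notch1, Batf2 and Wars, a transfer RNA synthetase, differed by -1.73, -1.90 and -1.35. Prr5 and Gprc5b were called higher with IFN-alpha (0.94 and 0.60) and read -0.72 and -0.78 with IFN-gamma beside mock (adjusted p = 0.0714 and 0.00383).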
